A study of Mus musculus with 22 samples.

Results

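The 33 genes described here encode the enzymes and transporters that carry glucose to lactate, together with pyruvate dehydrogenase kinase 1 and 6 genes of the response to low oxygen, among the 55487 genes measured. They were chosen by symbol: 3 glucose transporters, 19 enzymes from hexokinase to pyruvate kinase including the PFKFB regulators, 2 lactate dehydrogenase subunits, 2 lactate transporters, Pdk1, and Hif1a, Egln1, Egln3, Vegfa, Bnip3 and Ero1l. All 33 passed the filter on low counts in every comparison. The bulk RNA came from cultured primary splenic monocytes of male C57BL/6 mice, wild type in genotype, or from macrophages made out of such monocytes by 5 days in PMA (phorbol myristate acetate) at 200 ng/mL. Both kinds of cell were kept for 24 hours with vehicle or with ox-LDL at 50 µg/mL, an oxidised form of low-density lipoprotein that loads phagocytes with lipid. There were 6 libraries of monocytes with vehicle (replicates 1 to 6), 5 of monocytes with ox-LDL (7 to 11), 5 of macrophages with vehicle (A to E) and 6 of macrophages with ox-LDL (G to L). The age of the mice, any pooling and the way monocytes were isolated are not stated in the labels. The macrophage groups differ from the monocyte groups in PMA and in days of culture together, so these cannot be told apart. Nothing in the labels ties the libraries to different animals or cultures, so the p-values measure only library-to-library spread, which may be technical.

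Glycolysis phosphorylates glucose, splits it into triose phosphates and oxidises these to pyruvate, which lactate dehydrogenase reduces to lactate or pyruvate dehydrogenase passes to the mitochondrion. Several steps are served by isoenzymes from separate genes, which differ in affinity, regulation and tissue. Under low oxygen the prolyl hydroxylases (Egln genes) stop marking HIF-1α, encoded by Hif1a, for degradation, and HIF then activates most genes of the pathway. In macrophages the same programme is known to be switched on by inflammatory stimuli.

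HIF binds a short core, ACGTG or GCGTG, so the 250 bases before the RefSeq transcription start were searched for both on both strands. RefSeq (GRCm38.p6) gave a window for 32 of the 33 genes, with Slc2a3 the exception. Either core occurred in 25 of the 32 windows (78.1%), against 38.6% of the 32851 windows of all genes. ACGTG was in 46.9% of the members' windows and 16.6% of all windows, and GCGTG in 50.0% and 28.2%. Each member entered with 1 window, at the start nearest its deposited 5′ end, which lay 4329 bases away for Ldha and 6492 for Hif1a. The background took every window, and was not matched for base composition or for expression. The windows of 5 genes on which the results below turn are printed 5′ to 3′ in the direction of the gene, with core matches in capitals. CACGT and CACGC are the same cores on the other strand, and CACGTG is ACGTG on both strands, overlapping. Pgam1, Pgk1 and Hk3 are the members called higher with ox-LDL in macrophages, and Eno3 and Pfkm are the members with the largest fall and rise from monocytes to macrophages.
Pgam1 (chr19:41911621-41911870, + strand): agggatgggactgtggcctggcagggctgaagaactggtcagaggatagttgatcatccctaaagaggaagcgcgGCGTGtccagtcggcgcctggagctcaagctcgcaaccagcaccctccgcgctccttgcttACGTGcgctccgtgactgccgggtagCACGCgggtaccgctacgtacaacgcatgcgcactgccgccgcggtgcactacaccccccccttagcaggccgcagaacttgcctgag
Pgk1 (chrX:106186850-106187099, + strand): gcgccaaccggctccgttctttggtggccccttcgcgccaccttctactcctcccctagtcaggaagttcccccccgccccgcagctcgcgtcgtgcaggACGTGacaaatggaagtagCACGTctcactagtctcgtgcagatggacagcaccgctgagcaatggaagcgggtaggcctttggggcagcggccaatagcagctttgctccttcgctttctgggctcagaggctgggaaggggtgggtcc
Hk3 (chr13:55021386-55021635, - strand): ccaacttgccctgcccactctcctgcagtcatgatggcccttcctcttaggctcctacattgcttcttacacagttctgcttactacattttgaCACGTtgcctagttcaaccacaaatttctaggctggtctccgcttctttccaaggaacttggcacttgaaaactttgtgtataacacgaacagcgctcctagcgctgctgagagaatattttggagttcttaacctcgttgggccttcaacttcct
Eno3 (chr11:70656926-70657175, + strand): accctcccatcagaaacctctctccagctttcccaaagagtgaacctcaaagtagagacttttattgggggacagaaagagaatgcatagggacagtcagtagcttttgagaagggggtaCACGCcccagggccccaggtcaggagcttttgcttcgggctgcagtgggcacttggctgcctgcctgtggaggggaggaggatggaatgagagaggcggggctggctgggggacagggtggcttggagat
Pfkm (chr15:98092339-98092588, + strand): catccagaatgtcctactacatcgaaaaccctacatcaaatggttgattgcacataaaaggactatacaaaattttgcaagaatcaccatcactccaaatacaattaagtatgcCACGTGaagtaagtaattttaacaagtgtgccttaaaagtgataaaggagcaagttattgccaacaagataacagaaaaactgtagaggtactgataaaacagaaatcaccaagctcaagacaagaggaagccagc
Pgam1 held 3 matches, Pgk1 2, Hk3 1, Eno3 1, and Pfkm 1 palindrome counted as 2. Matches were present in 17 of the 19 genes higher in macrophages with vehicle and in 5 of the 6 lower genes with a window. A match is a run of letters and was not tested as a binding site.

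Libraries held 37330389 to 50257111 counts. The cell type labels were compared with marker genes (summed CPM, that is, counts scaled to library size with TMM factors). The 10 macrophage markers summed to 31408 to 44545 CPM in macrophage libraries, mainly through Gpnmb (mean 20340 with vehicle). In monocyte libraries these markers summed to 6120 to 9033 CPM with vehicle and 8995 to 14458 with ox-LDL, so this sum also differed by treatment. The 8 monocyte markers, among them Ly6c2, Ccr2 and Csf1r, summed to less in libraries labelled monocytes (808 to 2104) than in macrophages (2762 to 6859), mainly through Csf1r. Dendritic markers, led by Ccr7, reached 7871 to 13202 CPM in monocyte libraries and at most 11.9 in macrophages, while Xcr1, Clec9a and Siglech of that list were at or near 0. Erythroid markers ranged from 417 to 14479 in monocyte libraries and reached at most 2.89 in macrophages. The 10 neutrophil markers, such as S100a8, Ngp and Ltf, summed to 29083 to 44007 CPM in monocyte replicates 5, 6, 10 and 11 and to 4564 to 5688 in the other 7, against 25.5 to 93.6 in macrophages. These values touch every comparison of macrophages with monocytes below, and in bulk RNA fewer cells of a type and less RNA per cell cannot be told apart. Among macrophages, C, D, I and J stood apart from the other 7 on the leading principal component, which held 39.8% of the variance without the 33 genes.

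**Figure D1:**
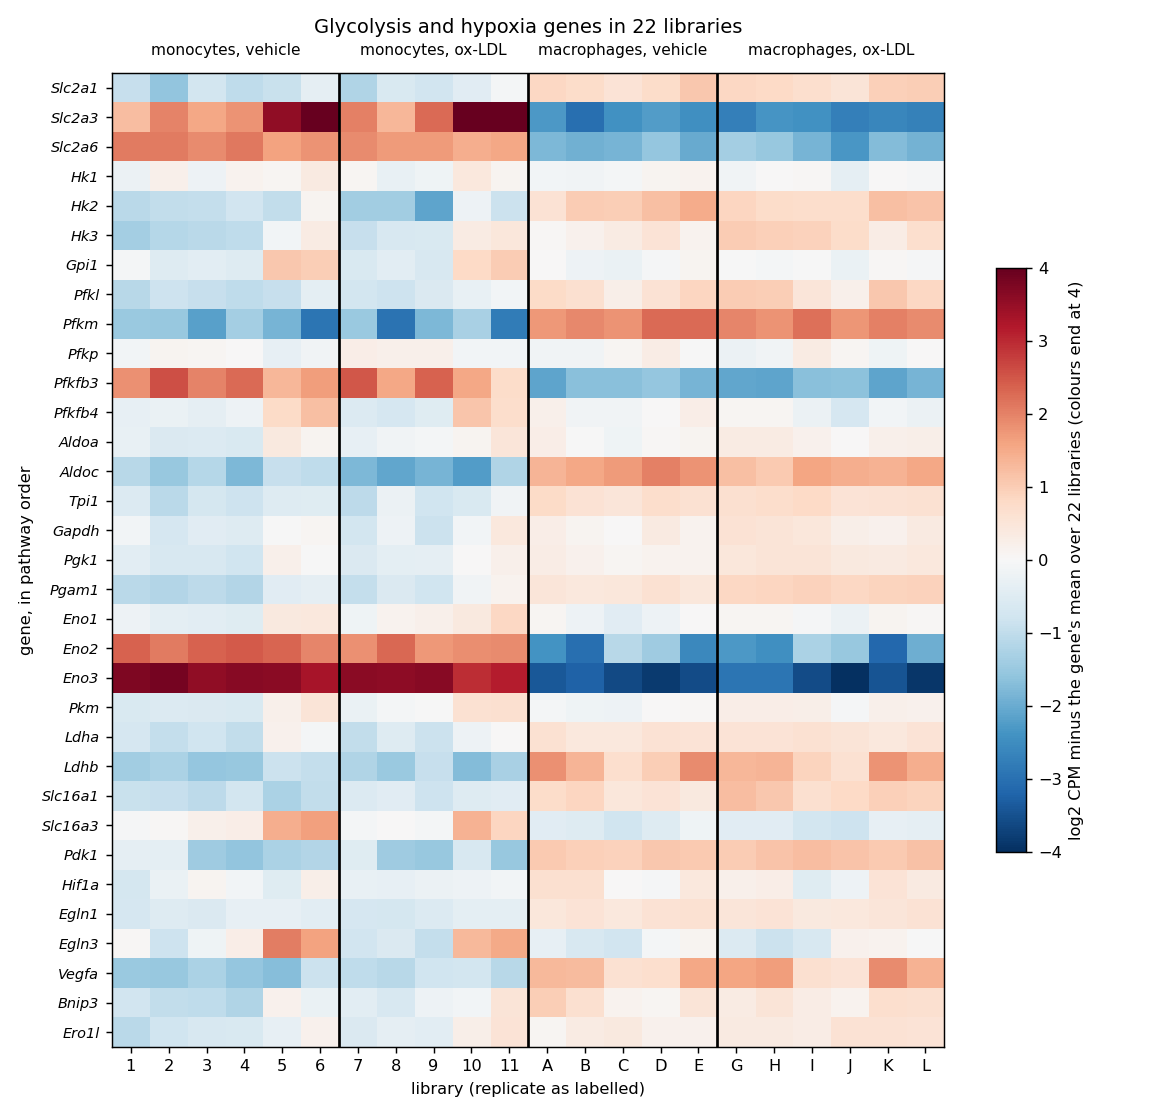
Level of the 33 genes (rows, in pathway order) in the 22 libraries (columns, grouped), as log2 CPM minus the gene's mean over all libraries; colours end at 4. Eno3, Slc2a3, Slc2a6, Pfkfb3 and Eno2 are high in all 11 monocyte libraries, while Pfkm, Aldoc, Ldhb and Vegfa are high in all 11 macrophage libraries.

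Per kilobase of exon, Aldoa (aldolase A) ranked highest of the 33 genes in all 4 groups, at 447 ± 139 FPKM (CPM per kilobase, SD, n = 6) in monocytes and 531 ± 60.9 (n = 5) in macrophages, both with vehicle. Pkm (pyruvate kinase, the last step to pyruvate) was next in every group, at 347 ± 131 and 378 ± 29.3 FPKM. Eno3 ranked number 3 in vehicle monocytes, at 240 ± 28.2 FPKM, and 30th in vehicle macrophages, at 1.71 ± 0.279. Ldha ranked number 6 in monocytes and number 3 in macrophages. Of the 32 neighbouring pairs in this order, all but 1 overlapped between libraries in each monocyte group, so the order of levels there is loose. In macrophages 9 pairs with vehicle and 7 with ox-LDL did not overlap. The coefficient of variation between libraries of a group had a median of 29.002% and 28.8% in monocytes (vehicle, ox-LDL) and 13.6% and 13.1% in macrophages. Lengths here count all annotated exons of a gene, so exons that a cell does not use lower the value.

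With vehicle, macrophages differed from monocytes in most of these genes, and the members of 1 step often differed in whether and how they changed. Glucose transporters and lactate transporters each had members called in opposite directions, while at no enzyme step was 1 isoenzyme called higher and another lower. Of the 33 genes 19 were higher in macrophages, 7 were lower and 7 did not pass (adjusted p under 0.05, edgeR's quasi-likelihood test). Over all genes tested 63.7% passed, 28.5% higher and 35.1% lower. The groups did not overlap in 13 of the higher and 6 of the lower members, against 49.3% of all genes (24.4% higher and 24.9% lower). The median log2 fold change was 0.45 over the members and −0.09 over all genes. The same contrast in ox-LDL-treated cells, which shares no library with it, gave 18 higher and 7 lower (65.4% of all genes passed, 30.3% higher and 35% lower), with a median of 0.51 against −0.07. There 14 members were higher and 6 lower without overlap, against 49.5% of all genes (24.6% and 24.9%). In both contrasts 24 members passed in the same direction, 18 up and 6 down. Aldoa, Gpi1, Hk1, Pfkfb4, Pfkp and Pkm passed in neither.

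**Figure D2:**
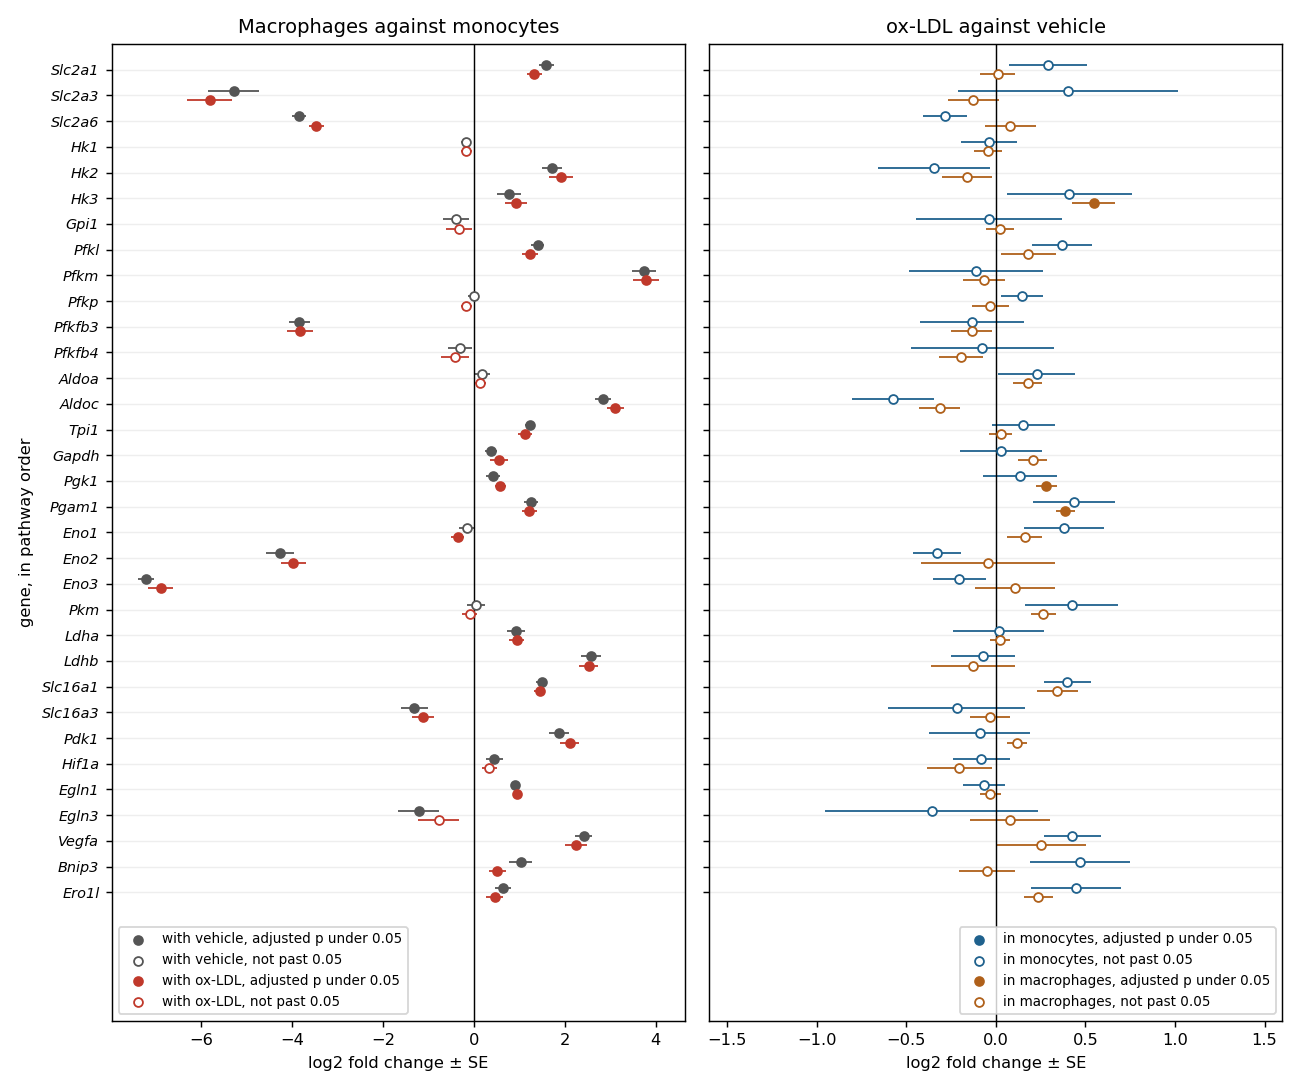
Log2 fold change with its standard error for each of the 33 genes: macrophages against monocytes (left, with vehicle and with ox-LDL) and ox-LDL against vehicle (right, on a narrower axis, in monocytes and in macrophages). Filled points have an adjusted p under 0.05: 26 and 25 on the left, 3 of the macrophage points and no monocyte point on the right.

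Of the 3 glucose transporter genes, Slc2a1 was higher in macrophages, and Slc2a3 and Slc2a6 were lower. Slc2a1 encodes GLUT1, the widespread basal glucose carrier. Its lowest, median and highest values in vehicle monocytes were 22.4, 35.8 and 51.9 CPM, and the 5 vehicle macrophage libraries held 120, 111, 97.8, 111 and 141 CPM (A to E). It rose 3.02-fold, a log2 difference of 1.595 ± 0.17 (SE, adjusted p = 1.67e-06). Slc2a3, the high-affinity carrier GLUT3, stood at 70.9, 112 and 497 CPM (lowest, median, highest) in vehicle monocytes and at 6.11, 3.69, 5.66, 6.42 and 5.46 in macrophages A to E. The log2 difference was −5.29 ± 0.56 (adjusted p = 1.83e-06), and the spread within monocytes followed the neutrophil markers, as described further on. Slc2a6, a lysosomal hexose transporter of myeloid cells, was more even, at 330.4, 429 and 460.2 CPM in monocytes and 30.9, 28.3, 29.4, 37.1 and 26.6 in macrophages. The log2 difference of Slc2a6 was −3.85 ± 0.14 (adjusted p = 8.57e-11). With ox-LDL the log2 differences were 1.33 ± 0.17 for Slc2a1, −5.81 ± 0.50 for Slc2a3 and −3.47 ± 0.16 for Slc2a6. No monocyte and macrophage library overlapped in any of the 3 genes.

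Hexokinase traps glucose in the cell. Hk2, the inducible mitochondrial form, rose 3.28-fold with vehicle (from 29.1 ± 11.2 CPM, n = 6, to 101 ± 22.3, n = 5), without overlap. Hk3, the myeloid form, rose 1.71-fold (adjusted p = 0.0199), and its range in monocytes, 115 to 366 CPM, overlapped that in macrophages, 303 to 423. Hk1, the housekeeping form, did not pass (−0.17 ± 0.12, adjusted p = 0.219). Gpi1, the next enzyme, held 381 ± 210 and 304 ± 31.7 CPM and did not pass.

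Phosphofructokinase, the committed step, is built from 3 kinds of subunit. Pfkm, the muscle subunit, had the largest rise of the members: its values in vehicle monocytes were 0.389, 0.928 and 1.15 CPM (lowest, median, highest), and in macrophages A to E 9.91, 11.4, 10.4, 14.4 and 14.4. The fold was 13.3 (log2 3.73 ± 0.26, adjusted p = 2.98e-08). Its level was still low, 3.62 ± 0.649 FPKM in macrophages beside 37.6 ± 5.89 for Pfkl, the liver subunit. Pfkl rose 2.65-fold, and Pfkp, the platelet subunit, did not pass (log2 −0.00 ± 0.12). Pfkfb3 makes fructose-2,6-bisphosphate, the strongest activator of phosphofructokinase, and ranked number 7 of the members per length in monocytes. It held 649, 982 and 1543 CPM (lowest, median, highest) with vehicle. In macrophages A to E it held 59.7, 81.8, 81.8, 89.2 and 71.7 CPM, so that the ranges lay far apart, and it fell by 3.84 ± 0.23 (14.3-fold, adjusted p = 8.45e-09). With ox-LDL the monocyte libraries 7 to 11 held 1444, 765, 1338, 756 and 435 CPM, and Pfkfb3 was among the 4 most lowered members (−3.83 ± 0.28, adjusted p = 8e-08). Pfkfb4, the related enzyme, did not pass in either contrast.

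From aldolase to phosphoglycerate mutase, the members called with vehicle (Aldoc, Tpi1, Gapdh, Pgk1 and Pgam1) were all higher in macrophages. Aldoa did not pass, whereas Aldoc, the brain-type aldolase, rose 7.16-fold with vehicle. Its monocyte values were 3.08, 4.95 and 5.65 CPM (lowest, median, highest), and macrophages A to E held 27.4, 31.4, 34.6, 43.7 and 37.7. The log2 differences were 2.84 ± 0.17 with vehicle (adjusted p = 5.84e-09) and 3.11 ± 0.19 with ox-LDL (adjusted p = 1.17e-08), yet Aldoc remained 2.01% ± 0.442 of the aldolase total per length in vehicle macrophages. Tpi1 (triosephosphate isomerase) rose 2.35-fold and Pgam1 (phosphoglycerate mutase) 2.39-fold, neither overlapping. Gapdh, which oxidises the triose phosphate, and Pgk1, which yields ATP, rose 1.29-fold and 1.34-fold with overlapping groups. Counts in the processed pseudogenes Pgam1-ps2 and Pgam1-ps1 came to 4.39% and 1.66% of those in Pgam1, so part of its reads may be placed in copies.

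Enolase held the member with the largest difference. Eno3 (β-enolase, chromosome 11, 70657202 to 70662513), the form known from muscle, held 337.5, 418.5 and 480 CPM in vehicle monocytes (lowest, median, highest) and 412, 408, 429, 262 and 303 in replicates 7 to 11 with ox-LDL. In vehicle macrophages A to E it held 3.27, 3.63, 2.77, 2.38 and 2.82 CPM, and with ox-LDL 1.90, 2.99 and 4.51 (lowest, median, highest). All 11 monocyte libraries thus exceeded all 11 macrophage libraries by far. The fall was 148-fold with vehicle (log2 −7.21 ± 0.18, adjusted p = 2.45e-12) and 118-fold with ox-LDL (−6.89 ± 0.27, adjusted p = 2.29e-10). Eno2, the neuronal form, was lower per length (5.41 ± 0.707 FPKM in vehicle monocytes), and held 20.6, 26.7 and 29.3 CPM in vehicle monocytes and 1.02, 0.660, 2.44, 1.961 and 0.880 in macrophages. It fell 19.3-fold (log2 −4.27 ± 0.31, adjusted p = 4.6e-08), and with ox-LDL by 3.97 ± 0.27 (adjusted p = 4.3e-08). Eno1, the ubiquitous form, did not pass with vehicle and was lower with ox-LDL by a small margin (−0.36 ± 0.15, adjusted p = 0.0491). In vehicle monocytes Eno3 made up 50.9% ± 8.93 of enolase per length, and in vehicle macrophages 0.779% ± 0.151. This share depends on the annotated exon lengths, 1739 bases for Eno3 and 5379 for Eno1. By mean CPM, Eno3 was below Eno1 in vehicle monocytes (417 and 1248).

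At the lactate end Ldha, the subunit that favours lactate formation, rose 1.89-fold with vehicle, from 465 ± 169 to 924 ± 58.3 CPM. Ldhb, the subunit that favours pyruvate, rose more: monocyte libraries held 11.3, 13.04 and 18.1 CPM (lowest, median, highest) and macrophages A to E 117, 83.3, 51.8, 64.8 and 121. The log2 differences of Ldhb were 2.58 ± 0.22 with vehicle (adjusted p = 2.38e-07) and 2.53 ± 0.21 with ox-LDL (adjusted p = 2.76e-07). The 2 monocarboxylate transporters moved apart. Slc16a1 (MCT1) rose 2.80-fold with vehicle, whereas Slc16a3 (MCT4), the form for lactate export, fell 2.48-fold (from 248 ± 139 to 104.5 ± 17.04 CPM). Csnk1d shares 306 exon bases with Slc16a3 on the other strand, and the strand setting of the counting is not given. Pdk1, which blocks pyruvate entry into the mitochondrion, rose 3.68-fold (12.1 ± 4.64 to 47.1 ± 2.40 CPM), again without overlap.

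Among the hypoxia genes Hif1a, Egln1, Vegfa, Bnip3 and Ero1l were called higher in macrophages with vehicle, and Egln3 was called lower. Vegfa, a secreted HIF target, was at 9.95, 11.5 and 17.95 CPM in vehicle monocytes and 79.0, 78.1, 49.1, 51.6 and 95.8 in macrophages A to E. It rose 5.32-fold (log2 2.41 ± 0.20, adjusted p = 1.55e-07) with vehicle and by 2.25 ± 0.24 (adjusted p = 2.52e-06) with ox-LDL. Egln1, the main oxygen sensor, rose 1.88-fold without overlap. Bnip3, a mitophagy receptor, and Ero1l, an oxidase of the endoplasmic reticulum, rose 2.04-fold and 1.57-fold with overlapping groups. Hif1a itself passed with vehicle only (0.45 ± 0.18, adjusted p = 0.0439; with ox-LDL 0.34 ± 0.16, adjusted p = 0.0771). Egln3 was lower with vehicle (−1.22 ± 0.45, adjusted p = 0.0285) and did not pass with ox-LDL (−0.78 ± 0.44). Whether either gene's difference depends on ox-LDL is the difference of effects tested below, where neither passed.

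Several of these calls lay near the threshold and were lost when any of several libraries was left out. With vehicle, Hif1a no longer passed without replicate 1, 2, 4, 5, A, B or E (adjusted p up to 0.108), Pgk1 without 1, 2, 3, 4, A or B (up to 0.0714), Egln3 without 5, 6, A, B or C (up to 0.101; −0.77 without replicate 5) and Gapdh without 2, 3, 4 or D (up to 0.0666). With ox-LDL, Eno1 no longer passed without 10, 11 or any of G to L (adjusted p up to 0.104; −0.23 without replicate 11), Ero1l without 7, 8, 9, G, H, J, K or L (up to 0.118), Bnip3 without 7, 8, 9, 10, K or L (up to 0.0717) and Gapdh without 7 or 9 (up to 0.0639). Hif1a passed with ox-LDL when I or J was left out (adjusted p = 0.00963 without I and 0.0435 without J). Under total counts in place of TMM, which shifted the median of all genes from −0.09 to −0.18 with vehicle, Hif1a and Gapdh did not pass either.

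The 4 monocyte libraries with the highest neutrophil markers also held more of many members. In replicates 5, 6, 10 and 11, 13 of the 33 genes were higher without overlap than in the other 7 monocyte libraries, and none was lower; over all genes tested 6.78% were higher and 3.51% lower. The 13 span the pathway: Slc2a3, Hk3, Gpi1, Pfkfb4, Aldoa, Pgk1, Pgam1, Eno1, Pkm, Ldha and Slc16a3, with Egln3 and Ero1l. Slc2a3 stood at 353 to 511 CPM in the 4 libraries and 70.9 to 144 in the 7. Gpi1 held 557 to 667 against 205 to 301 CPM, Slc16a3 263 to 451 against 137 to 177, and Pkm 2290 to 3079 against 1295 to 1987. Egln3 was at 8.77 to 14.8 against 1.88 to 4.32 CPM. Each set holds libraries of both treatments, 2 and 2 in the high set. The part that neutrophil RNA has in these values was not tested.

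**Figure D3:**
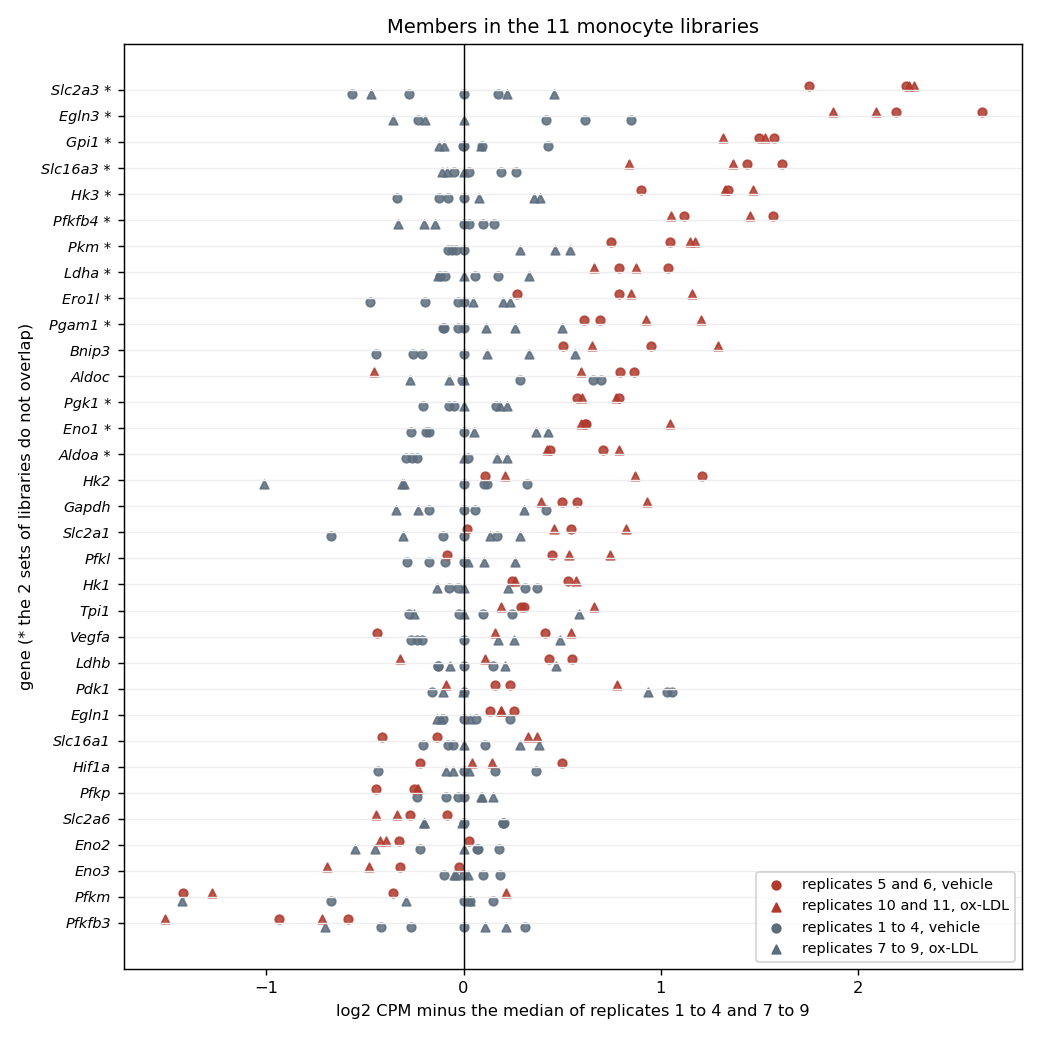
Level of each member in the 11 monocyte libraries, as log2 CPM minus the median of replicates 1 to 4 and 7 to 9; circles are vehicle and triangles ox-LDL. Red points (replicates 5, 6, 10 and 11, high in neutrophil markers) lie to the right of all grey points for the 13 starred genes, furthest for Slc2a3 and Egln3 in the top rows.

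Without those 4 libraries, a choice made after seeing the data, macrophages against monocytes gave 21 members higher and 6 lower with vehicle, and 20 higher and 7 lower with ox-LDL. In the same fits 29.9% of all genes were called higher and 34.8% lower with vehicle, and 30% and 35.2% with ox-LDL. Aldoa and Pkm then passed as higher with vehicle (log2 0.45 ± 0.11 and 0.41 ± 0.09), Aldoa and Gpi1 as higher (0.31 ± 0.10 and 0.41 ± 0.09) and Pfkp as lower (−0.33 ± 0.11) with ox-LDL. Egln3 with vehicle (−0.29, adjusted p = 0.335) and Eno1 with ox-LDL (−0.15, adjusted p = 0.255) did not. The fall of Slc2a3 came to −4.23 with vehicle and −4.61 with ox-LDL, and that of Slc16a3 to −0.71 and −0.56. Gpi1 and Pfkfb4 changed sign in both contrasts (Gpi1 from −0.39 to 0.20 and from −0.32 to 0.41; Pfkfb4 from −0.30 to 0.23 and from −0.42 to 0.33). Hk3 rose by 1.29 and 1.43, against 0.77 and 0.92 with all libraries. Eno3, Eno2, Slc2a6 and Pfkfb3 moved little (−7.30, −4.35, −3.97 and −4.06 with vehicle).

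The set of macrophage libraries C, D, I and J differed in other members. Pfkl, Ldhb, Hif1a, Vegfa and Bnip3 were lower in them without overlap and Pfkp and Eno2 higher, against 2.54% and 4.33% of all genes. Vegfa held 47.0 to 51.6 CPM in these 4 and 78.1 to 121 in the other 7, and Hif1a 113 to 160 against 184 to 246. Ldhb was at 50.0 to 64.8 against 81.8 to 121 CPM. Without C, D, I and J, 16 members were higher and 6 lower than in monocytes with vehicle, and 18 and 6 with ox-LDL. In those fits 24.6% of all genes were called higher and 29.6% lower with vehicle, and 27.2% and 34.3% with ox-LDL. Hif1a then passed with ox-LDL (0.53 ± 0.10, adjusted p = 0.000863). The origin of this set is not in the labels, and its part in these values was not tested.

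Shares within a step do not depend on how libraries are scaled. They do depend on the exon lengths used, which count all annotated exons of a gene. A share was computed from per-length levels for 1 isoenzyme of 6 steps and compared between groups with an exact 2-sided permutation test, 24 tests in all, adjusted over the 24. Macrophages and monocytes did not overlap in any of the 6 shares, with vehicle or with ox-LDL (exact p = 0.00433 each, the smallest these group sizes allow, adjusted p = 0.00866). Slc2a1 made up 6.20% ± 1.38 of the 3 glucose transporters in vehicle monocytes (SD, n = 6) and 76.2% ± 3.70 in vehicle macrophages (n = 5). With ox-LDL it made up 8.11% ± 1.64 (n = 5) and 75.8% ± 3.41 (n = 6). Slc2a6, the lysosomal transporter, was the largest part per length in vehicle monocytes, at 77.6% ± 13.05, and made up 22.1% ± 3.48 in vehicle macrophages. By CPM, Slc2a3 exceeded Slc2a6 in replicates 5, 6, 10 and 11 (497 against 376 in replicate 6). In the other monocyte libraries Slc2a3 was below Slc2a6. Pfkfb3 made up 87.8% ± 7.99 of the PFKFB pair in vehicle monocytes and 41.2% ± 6.36 in vehicle macrophages.

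Smaller changes in share were seen at the other steps. The Pfkp share fell from 34.4% ± 4.67 to 15.6% ± 3.11 of the phosphofructokinase subunits, while Pfkl made up 64.4% ± 5.05 and 77.0% ± 3.89. Pfkp itself did not fall (mean 95.0 and 100 CPM), while Pfkl and Pfkm rose. Pitrm1 shares 748 exon bases with Pfkp on the other strand, and held 49543 counts over all libraries beside 98199 for Pfkp, so reads of the pair may be mixed. Hk2 rose from 6.38% ± 1.16 to 12.9% ± 2.41 of the hexokinases, of which Hk3 was the largest part in both (64.9% ± 7.65 and 72.1% ± 3.28). The Ldha share fell from 93.8% ± 1.06 to 83.6% ± 4.43 of the dehydrogenase pair, although Ldha itself rose, as Ldhb rose more. Slc16a3 fell from 95.1% ± 2.22 to 77.4% ± 3.67 of the transporter pair. All these pairs of shares are vehicle monocytes and then vehicle macrophages. By mean CPM, Pfkp was not below Pfkl in vehicle monocytes (95.0 and 89.9).

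**Figure D4:**
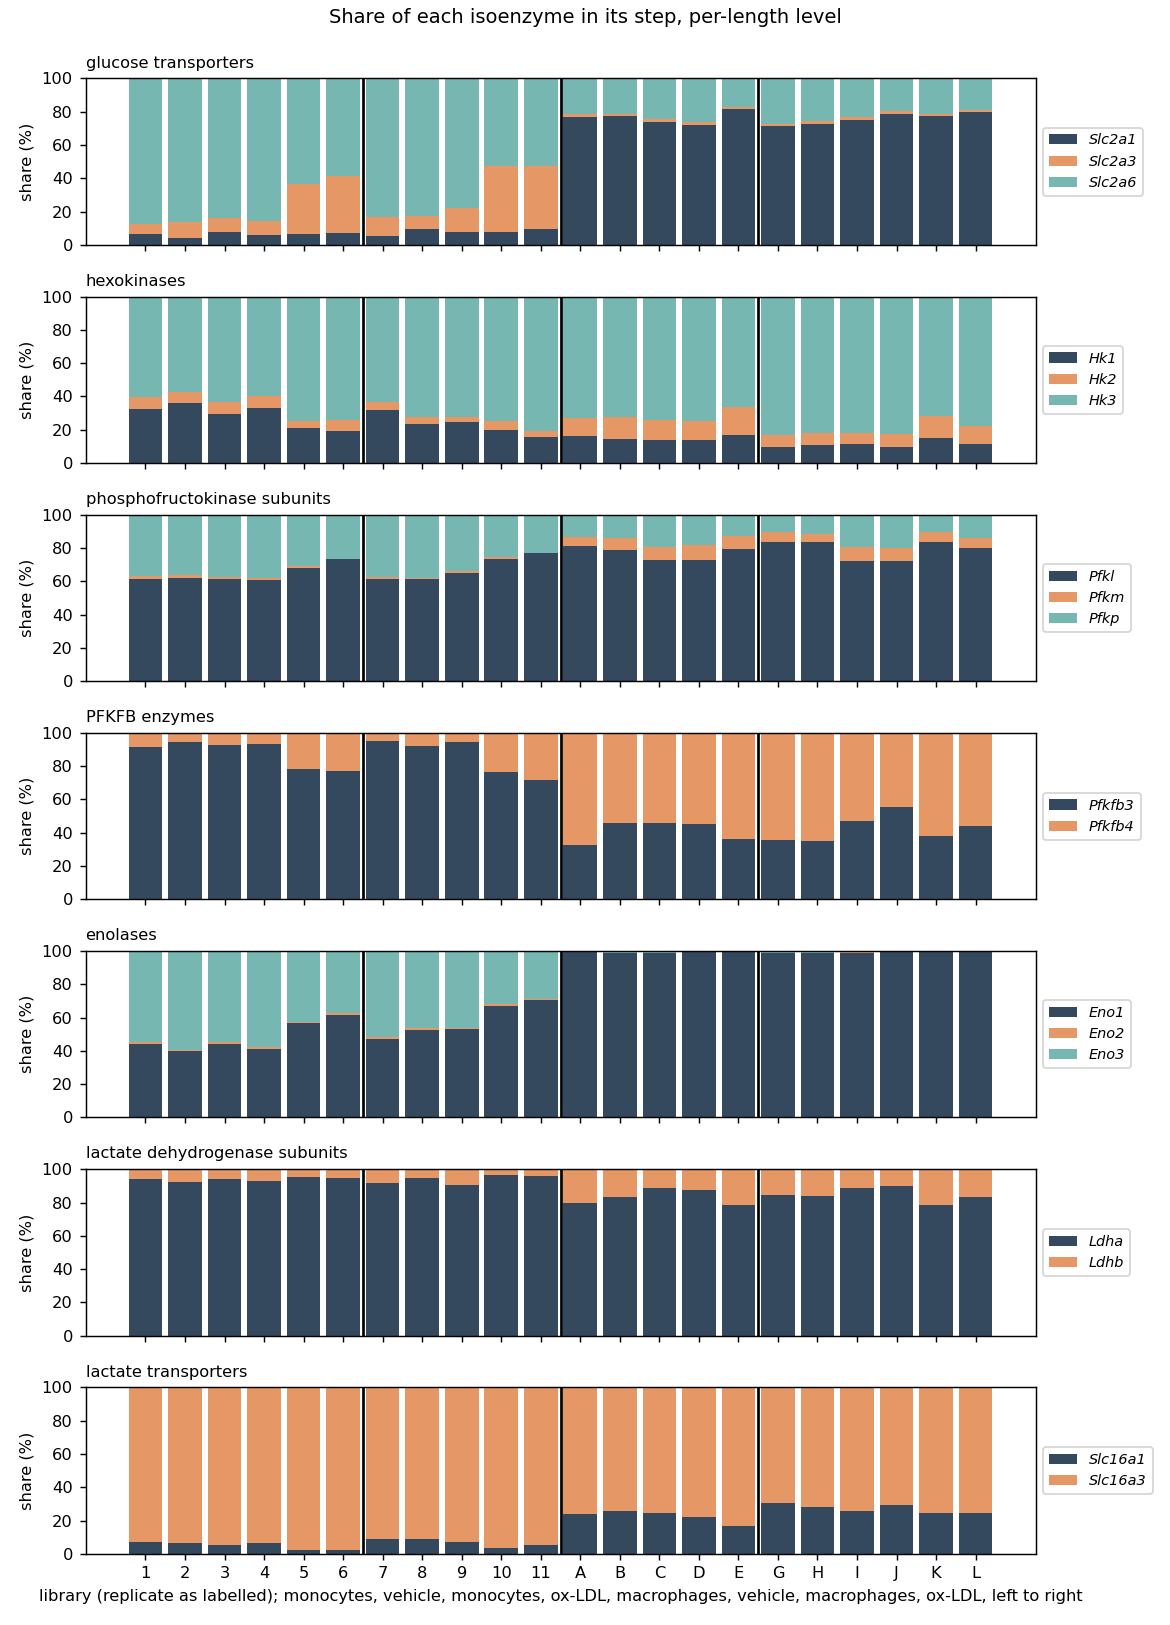
Share (%) of each isoenzyme in its step, from per-length levels, in each of the 22 libraries (bars; the groups run left to right as named on the axis and are parted by lines). Slc2a1, Pfkfb4 and Eno1 take up a larger part in every macrophage library, and the Slc2a3 and Eno1 parts are largest among monocytes in replicates 5, 6, 10 and 11.

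In macrophages treated with ox-LDL, a few transcripts of the pathway were higher and none passed as lower. Pgam1, Pgk1 and Hk3 passed as higher, 3 of the 33 members, and no member passed as lower (2.35% of all 14543 genes passed, 0.976% higher and 1.38% lower). The estimate was above 0 in 19 of the 33. The median over the members was 0.02, against 0.00 for all genes. At an unadjusted p under 0.05 there were 7 members higher and 1 lower, where 14.2% of all genes reached it (6.92% higher and 7.25% lower). Without overlap between the groups 2 members were higher and none lower, against 3.29% of all genes (1.44% higher and 1.84% lower).

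Pgam1 (phosphoglycerate mutase, chromosome 19, 41911923 to 41918660) held 206, 197, 204, 225 and 202 CPM in vehicle macrophages A to E, and 259.5, 269 and 278 with ox-LDL (lowest, median, highest). Every ox-LDL library exceeded every vehicle library. The rise was 1.31-fold (log2 0.39 ± 0.05, adjusted p = 0.00146). Pgk1 (phosphoglycerate kinase, X chromosome, 106187100 to 106203699) held 144, 131, 122, 127 and 129 CPM with vehicle and 148, 157 and 166 with ox-LDL, again without overlap. It rose 1.22-fold (0.28 ± 0.06, adjusted p = 0.0229). Pgk1 and Pgam1 catalyse consecutive steps. Hk3 (chromosome 13, 55005985 to 55021385) held 303, 326, 365, 423 and 322 CPM with vehicle and 360.1, 523 and 590 with ox-LDL, where library K lay inside the vehicle range. It rose 1.46-fold (0.55 ± 0.12, adjusted p = 0.0313).

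Pkm came next and did not pass: 1883, 1764, 1736, 2008 and 2069 CPM with vehicle and 1941, 2304 and 2408 with ox-LDL, a log2 difference of 0.26 ± 0.07 (adjusted p = 0.0734). Aldoc was the only member lower at an unadjusted p under 0.05 (−0.31 ± 0.12, adjusted p = 0.218). For Slc2a1 the difference was 0.01 with a 95% interval of −0.18 to 0.20, for Ldha 0.02 (−0.09 to 0.14) and for Hif1a −0.20 (−0.56 to 0.15). The hypoxia genes Vegfa, Bnip3, Egln1 and Egln3 did not pass.

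**Figure D5:**
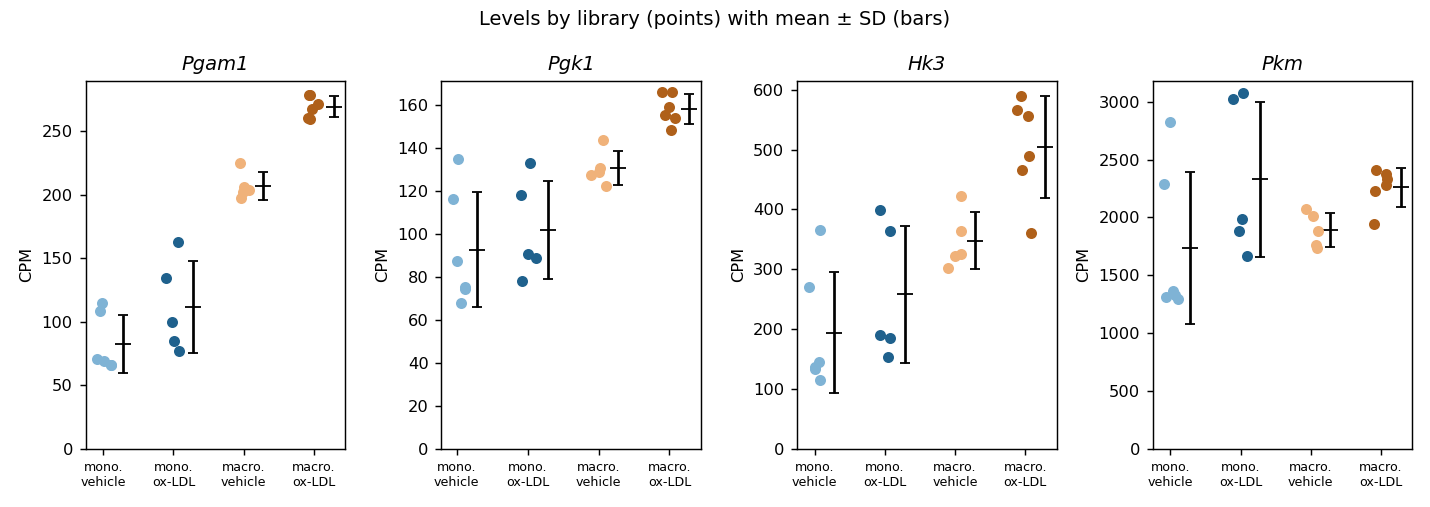
CPM of Pgam1, Pgk1, Hk3 and Pkm in each library (points) by group, with the group mean and SD (bar beside the points). In macrophages the 6 ox-LDL libraries lie above all 5 vehicle libraries for Pgam1 (from 259.5 CPM up) and Pgk1 (from 148 up), and overlap for Hk3 and Pkm.

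Of these calls Pgam1 was lost under 1 of 20 other settings, a fit over all 4 groups (adjusted p = 0.589), in which Pgk1 and Hk3 did not pass either (0.79 and 0.754) and 0.0344% of all genes were called higher. Pgk1 also failed with no filter on low counts (adjusted p = 0.0523), without B, C, D, E or H in turn (adjusted p 0.058 to 0.0673) and without C, D, I and J together (log2 0.24, adjusted p = 0.153), and Hk3 without A, B, C, E, G, H, I or L (0.0534 to 0.0947). Pkm passed when J was left out (adjusted p = 0.0321). With the library set as a covariate, added after seeing the data, 4 members passed as higher, where 1.99% of all genes did, and Pkm was among them (adjusted p = 0.0369).

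In monocytes no member passed with ox-LDL (4 of 16575 genes did, 0.0241%), by edgeR, by DESeq2 or by limma voom. At an unadjusted p under 0.05 there were 3 members higher and 3 lower, where 10.4% of all genes reached it (5.24% higher and 5.13% lower), and the median log2 difference was 0.02 against −0.00 for all genes. The 4 members with the lowest p follow. Slc16a1 held 6.90, 8.54 and 9.91 CPM with vehicle (lowest, median, highest) and 11.2, 11.96, 9.19, 11.5 and 11.9 in replicates 7 to 11, overlapping through replicate 9 (0.40 ± 0.13, adjusted p = 0.324). Vegfa held 9.95, 11.5 and 17.95 CPM with vehicle and 16.1, 15.2, 18.9, 19.7 and 15.03 with ox-LDL (0.43 ± 0.16, adjusted p = 0.374). Aldoc held 3.08, 4.95 and 5.65 CPM, and 3.10, 2.57, 2.94, 2.26 and 4.69 (−0.57 ± 0.23, adjusted p = 0.412). Eno2 held 20.6, 26.7 and 29.3 CPM, and 18.96, 25.9, 17.7, 19.3 and 19.7 (−0.33 ± 0.13, adjusted p = 0.425). All 4 overlapped between the groups, as did every other member (1.57% of all genes did not overlap).

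Intervals in monocytes were wide for the genes that followed the neutrophil markers: the 95% interval of the ox-LDL difference was −0.80 to 1.604 for Slc2a3 and −0.84 to 0.76 for Gpi1. For Pgam1 it was −0.01 to 0.89, for Pgk1 −0.27 to 0.54 and for Hk3 −0.27 to 1.09, ranges that include the differences seen in macrophages. The count of members called stayed at 0 without replicates 5, 6, 10 and 11 and with the library set as a covariate. In these fits 0% of all genes, and 0.44% higher and 0.169% lower, were called. At an unadjusted p under 0.05 more members were reached than with all libraries and no covariate. There were 7 higher and 5 lower without those replicates, and 9 higher and 6 lower with the covariate. The share of all genes at that unadjusted level was not taken in these fits.

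The Hk2 share was the only share that passed with ox-LDL. It fell in monocytes from 6.38% ± 1.16 (n = 6) to 4.02% ± 1.06 (n = 5), a difference of −2.36 points (exact permutation p = 0.0173, adjusted p = 0.032), with overlapping groups. It did not pass when any of replicates 1, 2, 3, 4, 6, 8, 9, 10 or 11 was left out (adjusted p 0.0527 to 0.0653). In macrophages the Hk2 share differed by −3.86 points (exact p = 0.0433, adjusted p = 0.0693) and the Slc16a3 share by −4.66 points (exact p = 0.0346, adjusted p = 0.0594), and neither passed.

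The ox-LDL effect was not found to differ between the cell types in any member (0 of 33; 11 of 17466 genes passed, 0.063%), by edgeR, DESeq2 or limma voom, and no member had an unadjusted p under 0.05 (7.22% of all genes did). The lowest p-values were those of Slc2a6 and Bnip3. For Slc2a6 the ox-LDL difference was −0.28 ± 0.12 in monocytes and 0.08 ± 0.14 in macrophages, and the difference between them 0.39 ± 0.20 (adjusted p = 0.736). For Bnip3 it was 0.47 ± 0.28 and −0.05 ± 0.16, with a difference of −0.50 ± 0.32 (adjusted p = 0.811). For Pgam1, called in macrophages only, the 2 effects were 0.44 ± 0.23 and 0.39 ± 0.05.

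Other genes of the same pathways were read from 3 further lists. With ox-LDL in macrophages, Adpgk (ADP-dependent glucokinase, 0.28 ± 0.06, adjusted p = 0.0309) was the 1 gene called of 25 other glycolysis genes tested. Gbe1 (glycogen branching enzyme, 0.46 ± 0.09, adjusted p = 0.017) was the 1 of 26 other hypoxia genes, and Taldo1 (transaldolase, 0.38 ± 0.08, adjusted p = 0.0192) the 1 of 7 pentose phosphate genes. All 3 rose without overlap between the groups; 0.976% of all genes were called higher. In monocytes none passed.

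Between cell types with vehicle, 13 of 27 other glycolysis genes were higher in macrophages and 10 lower, where 28.5% of all genes were higher and 35.1% lower. The lowest p-values were those of Gpd2 (mitochondrial glycerol phosphate dehydrogenase, −1.89 ± 0.11), Pdk3 (−1.71 ± 0.13), a kinase of pyruvate dehydrogenase like Pdk1, and Slc2a8 (GLUT8, 2.05 ± 0.15). Of 27 other hypoxia genes 11 were higher and 10 lower, with the lowest p-values in Anxa2 (−2.25 ± 0.13) and in the collagen prolyl hydroxylase subunits P4ha1 (2.01 ± 0.13) and P4ha2 (3.86 ± 0.30). None of the 7 pentose phosphate genes passed in either cell type contrast. With ox-LDL the counts were 13 and 11 of 27, and 10 and 12 of 27, where 30.3% of all genes were higher and 35% lower, with Slc2a8 (2.02 ± 0.11), Slc16a7 (MCT2, 2.05 ± 0.14) and Gpd2 (−1.70 ± 0.12) lowest in p among the former. Adm (adrenomedullin, −6.85 ± 0.37), Vhl, which marks HIF-1α for degradation (−1.74 ± 0.12), and Car9 (carbonic anhydrase, 1.75 ± 0.12) had the lowest p-values among the latter.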

How the data were processed

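RNA-seq gene tables of 22 libraries in 4 groups were used. Per the submitters' processing notes, reads were aligned with STAR 2.7.9a to GRCm38 and counted with featureCounts 2.0.3 (Subread); for the annotation release, strand setting and multi-mapped reads: not given in the sources used here. The authors' tables hold raw counts per gene, deposited without normalization. The deposited CPM, FPKM and TPM values follow from those counts and gene lengths (0 values off at a relative tolerance of 0.001) and were not used further. All values here start from the counts. Symbols and biotypes came from GENCODE M21 (99.4% of 55487 IDs had a symbol, and the bounds of all 33 members were the same); Aldoa has a further ID with 92 counts, not used.

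Each comparison was fitted on its own groups by edgeR 4.0.16, run in R 4.3.3, after TMM scaling and filterByExpr, using a 2-sided quasi-likelihood F test, Benjamini-Hochberg adjusted over all genes tested; the difference of ox-LDL effects was fitted over all 4 groups. Standard errors come from the F statistic. CPM use TMM factors over all 22 libraries, and FPKM divide these by the deposited exon length. Isoenzyme shares were compared by exact permutation. DESeq2 1.42.0, limma voom 3.58.1, other scalings and filters, and leaving out each library were alternatives. The fits were also run on simulated counts, drawn without the sets of libraries described above, and no result here rests on that run. No molecular identifiers were used, so reads are not independent molecules.

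The members, lists, marker genes and rules were chosen with earlier results of these data known. Values per library are given for members called with ox-LDL and the 4 with the lowest p, and for the 4 highest and 4 lowest called members of each cell type contrast; up to 3 genes are named per other list. Among genes past a minimum of counts summed over the pair, no 2 libraries of a group had the same counts in over 0.547%. No sample was left out.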

Additional observations from a re-analysis of the deposited data

Results flagged for a closer look

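In 4 of the 132 sets of values examined (33 genes in 4 groups), a single library lay far from the rest of its group by Dixon's 95% criterion, which chance meets in about 1 group in 20. Hk2 was at 51.7 CPM in monocyte replicate 6 with vehicle, where the other 5 libraries held 22.4 to 27.98, and Pfkl in the same library was at 124 CPM, where the others held 74.4 to 90.6. Replicate 6 is among the 4 monocyte libraries with high neutrophil markers. Eno2 was at 25.9 CPM in monocyte replicate 8 with ox-LDL, with the others at 17.7 to 19.7. Slc16a1 was at 9.19 CPM in monocyte replicate 9 with ox-LDL, with the others at 11.2 to 11.96. All 4 are in monocyte groups.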

How the results depend on the processing

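No paired analysis was possible because the groups share no replicate numbers. Of 222 recomputed counts of members called, 217 stayed within 1.5 times the main count. The 5 that moved concern members called higher with ox-LDL in macrophages (3): 0 in 1 fit over all 4 groups, and 1 to 4 when a library was left out (1 without B, C, E or H). Counts of 0 stayed 0. For the 26 named gene results, 521 of 542 recomputed values kept their direction and side of the threshold, 18 lost the call and 3 gained it, and none reversed. Of 348 recomputed isoenzyme shares, all of the cell type contrasts kept direction and call. The ox-LDL differences in share, all but 1 not called, ranged as follows, in points, when a library was left out: in monocytes Hk2 −2.82 to −2.02, Ldha −0.55 to 0.85, Pfkfb3 −4.07 to 1.85, Slc2a1 1.44 to 2.56 and Pfkp −4.57 to −0.82; in macrophages Hk2 −4.77 to −2.85, Ldha −0.0503 to 2.43, Pfkfb3 −1.36 to 2.73, Slc16a3 −5.50 to −3.14, Slc2a1 −1.48 to 0.95 and Pfkp −2.50 to −0.31. Without replicates 5, 6, 10 and 11 the monocyte values were −3.04 for Hk2 (adjusted p = 0.0857; the exact test on the remaining libraries cannot pass), −0.915 for Ldha, 1.03 for Pfkfb3 and −0.917 for Pfkp (−2.96 with all libraries), and without C, D, I and J Pfkfb3 in macrophages came to −0.113 and Slc2a1 to −3.23 (−0.40 with all libraries; adjusted p = 0.433). Leaving out sets of libraries and the set covariate were chosen after seeing the data. Counts were low for Pfkm in monocytes (0.388 CPM in the lowest library) and Eno2 in macrophages (0.604 CPM).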
